A study of Mus musculus with 3 samples.

Results

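The genes described here are 50 genes of the cell cycle and of DNA replication. They were taken by name from a list of 51 entries, in which geminin stands under both of its names, with no threshold on a measured level, though earlier results of these data were known when the list was made. They fall into 9 genes of origin licensing, 10 of replication forks and nucleotide supply, 8 of G1 control, 17 of G2 phase and mitosis and 6 inhibitors tied to leaving the cycle. Of the 18193 genes that the array annotation names, 49 are members, each measured by whichever of its probe sets had the highest mean over the 3 arrays. Ccnb1 had no probe set named for it alone in the annotation used, and was not analysed here.

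Tgn1-2G transgenic mice of both sexes, aged 5 to 8 days after birth, gave the olfactory epithelium. As background, in this line regulatory sequence of Neurog1, a proneural gene of olfactory progenitors, drives GFP, and the protein persists in daughter cells after its promoter has fallen silent. Cells were sorted by fluorescence into 1000000 strongly positive (GFP+++), 1300000 weakly positive (GFP+) and 6800000 negative cells (GFP-), and each fraction was hybridised to 1 array. Each fraction carries the number 32 in the labels, which is read here as pooled mice, and whether all fractions share those animals is not stated. All 3 fractions carry the transgene, and by the submitters' account GFP- held every cell type of the tissue with fewer immature neurons, so it is not a control free of neurons.

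Dividing cells pass through an ordered programme. In G1, D-type cyclins with Cdk4 or Cdk6, and then E-type cyclins with Cdk2, relieve the hold of the retinoblastoma protein on E2F factors, which turn on replication genes. Licensing factors load the Mcm2 to Mcm7 helicase on origins, forks copy the DNA in S phase, and the B-type cyclins with Cdk1, the Aurora and Polo kinases and the kinetochore proteins carry the cell through mitosis. In the olfactory epithelium globose basal cells divide throughout life and feed precursors that leave the cycle as they become sensory neurons. Cdk inhibitors of the Cip/Kip and Ink4 families act at that exit.

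The 3 arrays had been scaled to 1 trimmed mean, and their median signals were 88.2 in GFP+++, 107 in GFP+ and 118 in GFP-. Signals are MAS5 intensities without detection calls, so values under a floor of 104, the pooled median, were raised to it before ratios were taken, and where 1 of the compared arrays lay under it the ratio is a lower bound. With 1 array per fraction there is no replicate error and no test. A difference counts as a call at 2-fold or more, and the only error that could be measured is that between probe sets of a gene, whose log2 folds had a pooled SD of 0.30 for GFP+++ against GFP-, 0.24 for GFP+ against GFP- and 0.30 for GFP+++ against GFP+. That SD contains nothing of the spread between mice, sorts or labelling reactions.

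Markers of immature neurons were higher in GFP+++ but not in GFP+. Gap43, the growth cone protein of immature sensory neurons, gave 11233 (GFP+++), 6006 (GFP+) and 6395 (GFP-), and all 8 immature neuron markers lay above GFP- in GFP+++, with a median log2 fold of 0.73. In GFP+ 5 of these 8 lay below GFP-, with a median of -0.14, and their signals summed to 59716 (GFP+++), 36570 (GFP+) and 41467 (GFP-). Omp, the marker of mature sensory neurons, gave 5041 (GFP+++), 10615 (GFP+) and 7748 (GFP-), so the strongly positive fraction was not free of mature neuron RNA. Neurog1 gave 1492 (GFP+++), 1363 (GFP+) and 1202 (GFP-).

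Promoter sequence is shown for a few mitotic and licensing genes, because E2F factors and the complexes that bind CHR letters are known to regulate replication and mitotic genes. RefSeq promoter windows of the mouse build GRCm38.p6, from 250 bases before to 50 bases after a gene's start, were matched by symbol for 39 of the 50 genes, in 43 windows. Both strands were searched for E2F letters (TTTCCCGC or TTTCGCGC or TTTGCCGC or TTTGGCGC), for the cell cycle homology region or CHR (TTTGAA or TTCGAA), which the DREAM and MuvB complexes bind, and for the CCAAT box of the factor NF-Y. Matches can overlap, as E2F letters on opposite strands do below, and a match describes the letters only.

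CHR letters stood in 12 of the 15 windows of G2 and mitosis genes (80.0%), against 19.2% of all 32851 windows and 13.7% of the 12800 windows of genes above the floor on at least 1 array. All 12 of these also held a CCAAT box, a pair found in 7.52% of all windows. E2F letters stood in 6 of the 8 licensing windows (75.0%), against 2.26% of all windows and 3.90% of those above the floor, and in 1 of the 15 windows of G2 and mitosis genes, that of Cdk1. CHR letters were not limited to the mitotic genes: they stood in 2 of the 8 licensing windows, of Mcm2 and Mcm7, each with a CCAAT box. A CCAAT box stood in 6 of the 8 licensing windows, against 37.4% of all windows and 37.3% of those above the floor. Of the 8 windows of replication and nucleotide genes 1 held E2F letters, that of Pola1. Of the 6 of G1 control 1 did, that of Cdk2. CHR letters stood in 0 windows of either group. A CCAAT box stood in 5 of 8 replication and nucleotide windows, 2 of 6 of G1 control and 3 of 6 of the exit inhibitors. None of the 6 windows of the exit inhibitors held E2F or CHR letters. Beside the shares over all windows, counts of 0 in so few windows say little. In Aurka, Bub1, Cenpa, Cenpf and Plk1 CHR matches lay only at or after the start, as did the E2F matches of Cdt1 and Mcm3. The 200 bases before the start are shown for 4 mitotic and 3 licensing genes whose CHR or E2F matches lie upstream. Every E2F, CHR and CCAAT match in them is in capitals, on either strand.
Cdk1 (chr10:69352913-69353112, minus strand): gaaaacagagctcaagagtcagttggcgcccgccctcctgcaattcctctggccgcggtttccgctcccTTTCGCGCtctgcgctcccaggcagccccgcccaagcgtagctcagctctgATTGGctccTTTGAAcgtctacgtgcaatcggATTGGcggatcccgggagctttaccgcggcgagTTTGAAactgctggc
Top2a (chr11:99024190-99024389, minus strand): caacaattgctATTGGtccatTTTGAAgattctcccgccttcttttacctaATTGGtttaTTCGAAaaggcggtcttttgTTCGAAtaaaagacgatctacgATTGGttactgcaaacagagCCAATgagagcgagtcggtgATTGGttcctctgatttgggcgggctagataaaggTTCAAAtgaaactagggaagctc
Cdc20 (chr4:118437344-118437543, minus strand): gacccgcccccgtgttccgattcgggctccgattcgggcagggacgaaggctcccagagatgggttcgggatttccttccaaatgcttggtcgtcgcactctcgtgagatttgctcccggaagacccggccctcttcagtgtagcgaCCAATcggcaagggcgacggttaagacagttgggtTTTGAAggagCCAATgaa
Ube2c (chr2:164769729-164769928, plus strand): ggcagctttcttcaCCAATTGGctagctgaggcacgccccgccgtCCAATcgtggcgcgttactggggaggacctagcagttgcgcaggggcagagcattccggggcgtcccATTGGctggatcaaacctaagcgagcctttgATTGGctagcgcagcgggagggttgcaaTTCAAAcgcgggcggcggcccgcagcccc
Cdc6 (chr11:98907951-98908150, plus strand): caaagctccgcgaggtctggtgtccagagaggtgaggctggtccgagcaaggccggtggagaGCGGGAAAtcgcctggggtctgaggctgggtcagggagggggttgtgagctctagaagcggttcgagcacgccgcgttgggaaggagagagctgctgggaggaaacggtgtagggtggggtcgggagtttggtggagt
Mcm5 (chr8:75109309-75109508, plus strand): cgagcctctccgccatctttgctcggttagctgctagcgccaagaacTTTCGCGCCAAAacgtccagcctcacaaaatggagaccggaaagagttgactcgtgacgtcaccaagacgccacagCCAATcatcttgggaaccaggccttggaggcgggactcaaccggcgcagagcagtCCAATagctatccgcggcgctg
Mcm6 (chr1:128359706-128359905, minus strand): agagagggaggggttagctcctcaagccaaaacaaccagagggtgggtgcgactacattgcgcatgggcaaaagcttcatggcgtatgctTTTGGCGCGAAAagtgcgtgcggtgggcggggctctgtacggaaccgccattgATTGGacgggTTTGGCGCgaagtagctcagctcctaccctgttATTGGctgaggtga
Counted from the start, the CHR match nearest to it begins at position -15 in Cdk1, -18 in Cdc20, -23 in Top2a and -29 in Ube2c, and each of these promoters has at least 1 CCAAT box further upstream. In Cdc20 a second CCAAT box lies between the CHR match and the start, at -8. In Mcm5 and Mcm6 E2F letters of both strands overlap, from position -153 and -110 on, and Cdc6 has a single E2F match, at -138. The windows of Birc5, Cenpe and the unmeasured Ccnb1 were those of the mitotic genes in which CHR letters were not found.

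GFP+++ against GFP- asks how the fraction rich in immature neurons differs from the rest of the epithelium. Of the 48 members above the floor on at least 1 of these arrays, 27 were at least 2-fold lower in GFP+++ and 0 at least 2-fold higher, where 12.4% of the 12235 genes compared were lower and 1.92% higher by that rule. At 1.5-fold 36 members were lower, against 20.5% of all genes, and at 3-fold 15 members, against 6.11%. The median log2 fold of the members was -1.08, and that of all genes 0.01. With arrays scaled by their medians instead, 17 members were lower and 1 higher, the median of all genes moved to 0.42, and the calls over all genes went from 1522 lower and 235 higher to 1045 lower and 1129 higher. In a bulk fraction, fewer cells of a type and less RNA per cell cannot be told apart. Tyms, thymidylate synthase, lay under the floor on all 3 arrays, at 20.7, 45.8 and 59.1, and gives no ratio.

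**Figure D1:**
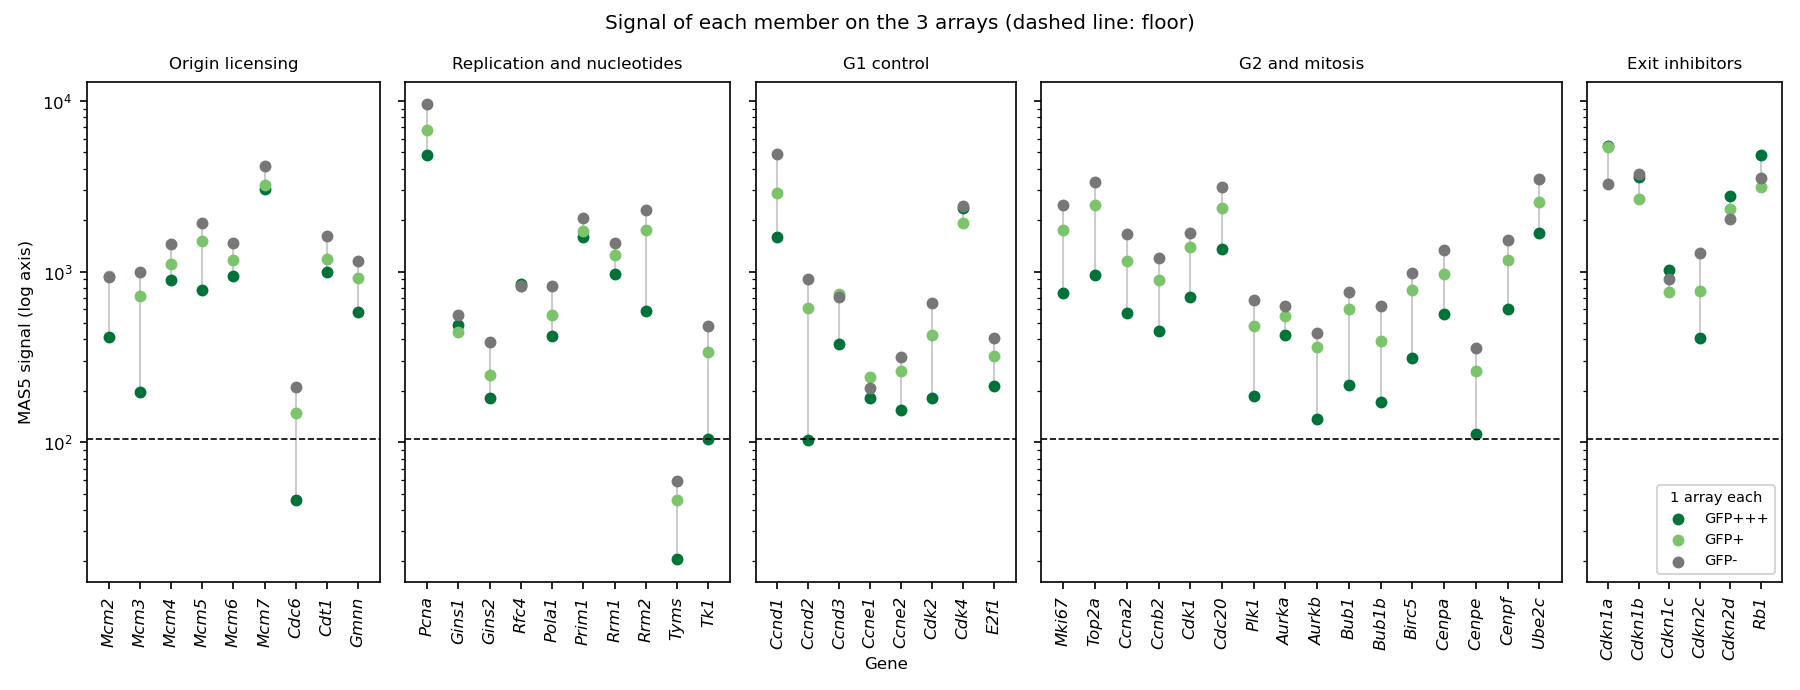
MAS5 signal (log axis) of each of the 49 members on the GFP+++, GFP+ and GFP- arrays, 1 point per array, by role; the dashed line is the floor of 104. In the G2 and mitosis panel the 3 arrays keep the order GFP+++, GFP+, GFP- from low to high in all 16 genes, while the exit inhibitors do not share an order.

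Genes of G2 and mitosis formed the most uniform group. In all 16 measured members GFP+++ was lowest and GFP- highest with GFP+ between them, an order shown by 28.6% of all genes above the floor. In GFP+++ 15 of the 16 were at least 2-fold below GFP-, against 12.4% of all genes. Their median log2 fold was -1.61, which corresponds to 3.04-fold. Signals in GFP+++ ran from 27.5% to 67.6% of those in GFP-, with a median of 32.9%.

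The proliferation antigen Mki67, present in the nuclei of cycling cells, gave 753 (GFP+++), 1758 (GFP+) and 2444 (GFP-). Top2a, the topoisomerase that untangles replicated chromosomes, gave 959 (GFP+++), 2458 (GFP+) and 3329 (GFP-). In GFP+++ Mki67 was 3.25-fold lower and Top2a 3.47-fold lower, and the weakly positive fraction lay much closer to GFP-, at 1.39-fold lower for Mki67 and 1.35-fold lower for Top2a.

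The cyclins and kinases that drive entry into mitosis had the same order. Ccna2, the cyclin of S and G2 phase, gave 573 (GFP+++), 1146 (GFP+) and 1666 (GFP-) and was 2.91-fold lower in GFP+++. Ccnb2, a mitotic cyclin, gave 451 (GFP+++), 895 (GFP+) and 1206 (GFP-), or 2.67-fold lower. Cdk1, the kinase that these cyclins activate and whose promoter is shown above, gave 707 (GFP+++), 1396 (GFP+) and 1692 (GFP-), or 2.39-fold lower. The log2 folds of these 3 genes, -1.54, -1.42 and -1.26, span less than the probe set SD of 0.30.

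Among the mitotic kinases, Plk1, which acts at centrosomes and kinetochores, gave 187 (GFP+++), 476 (GFP+) and 679 (GFP-) and was 3.63-fold lower. Aurkb, the kinase of the chromosomal passenger complex, gave 136 (GFP+++), 363 (GFP+) and 437 (GFP-), or 3.21-fold lower. Its partner Birc5, survivin, gave 309 (GFP+++), 776 (GFP+) and 985 (GFP-), or 3.19-fold lower. These 3 were low in GFP+++ to a like degree.

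Aurka, the Aurora kinase of the spindle poles, was the exception of the group. It gave 423 (GFP+++), 548 (GFP+) and 625 (GFP-), which is 1.48-fold lower in GFP+++. The order of the arrays was that of the other mitotic genes, but the difference stayed short of 2-fold. Its promoter window held CCAAT letters, and CHR letters only after the start. Birc5 and Cenpe, without CHR letters, each had a log2 fold of -1.67. Whether promoter letters go with the size of the fold was not tested.

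The spindle checkpoint kinase Bub1 gave 217 (GFP+++), 606 (GFP+) and 759.8 (GFP-), or 3.49-fold lower, while its second probe set gave a log2 fold of -0.97, short of 2-fold. Bub1b, which holds back the anaphase-promoting complex, gave 172 (GFP+++), 392 (GFP+) and 626 (GFP-) and had the lowest ratio of the group, 3.64-fold lower. The activator of that complex, Cdc20, gave 1364 (GFP+++), 2368 (GFP+) and 3115 (GFP-), or 2.28-fold lower. Ube2c, the ubiquitin-conjugating enzyme that works with it, gave 1675 (GFP+++), 2555 (GFP+) and 3492 (GFP-), or 2.08-fold lower, just past the threshold. The promoters of Cdc20 and Ube2c are shown above, and both genes had the array order of the checkpoint kinases.

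Of the kinetochore genes, Cenpa, the histone H3 variant that marks centromeres, gave 567 (GFP+++), 969 (GFP+) and 1333 (GFP-) and was 2.35-fold lower. Cenpe, a kinetochore motor, gave 111 (GFP+++), 263 (GFP+) and 355 (GFP-), or 3.19-fold lower, with GFP+++ just above the floor. Cenpf, which appears at kinetochores in late G2, gave 599 (GFP+++), 1163 (GFP+) and 1535 (GFP-), or 2.56-fold lower. All of them were highest in GFP-.

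**Figure D2:**
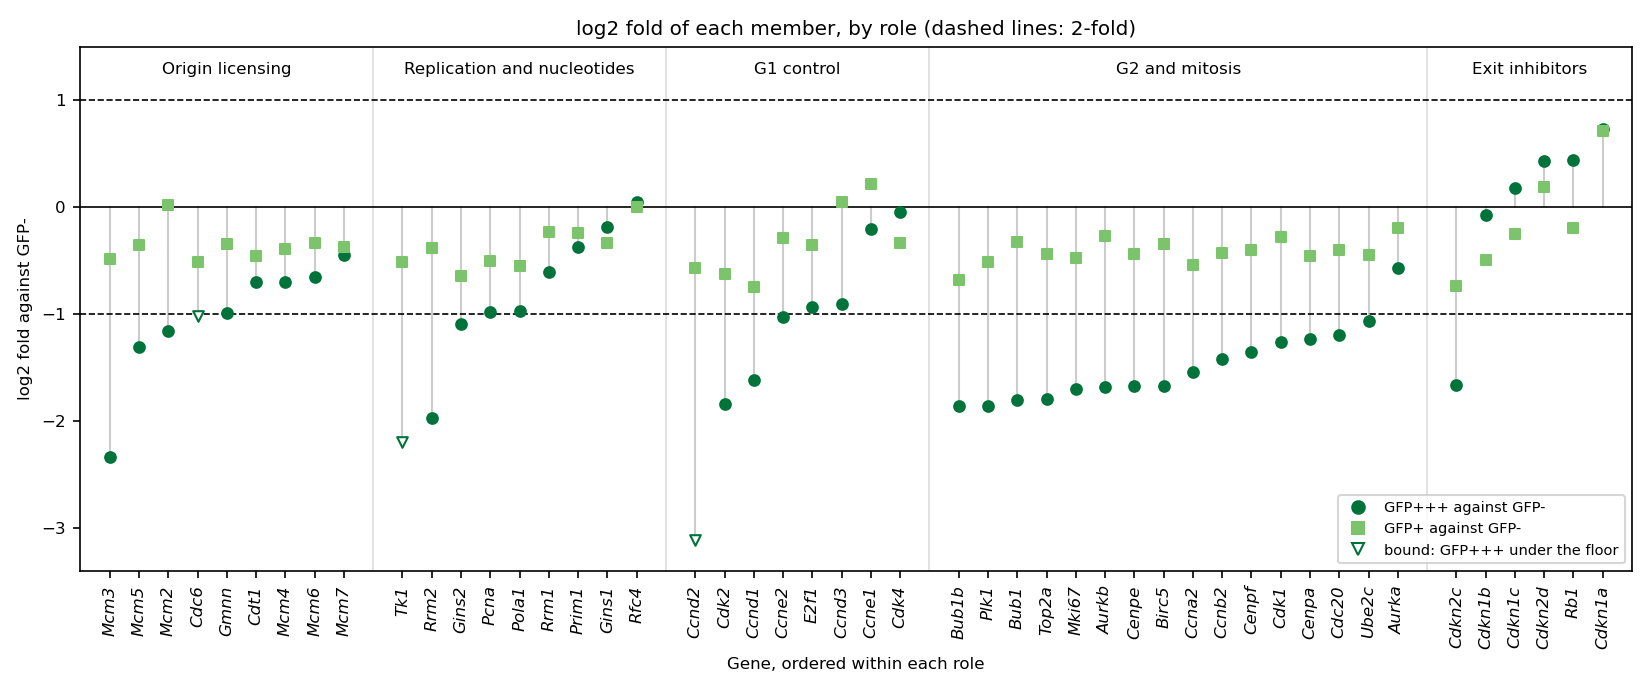
log2 fold against GFP- of the 48 members above the floor on at least 1 array, for GFP+++ (dark circles) and GFP+ (light squares), ordered within each role; open triangles are bounds and dashed lines mark 2-fold. The G2 and mitosis genes lie between -1.86 and -0.57 in GFP+++, whereas the exit inhibitors reach from -1.66 to 0.74; both series share the GFP- array.

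Markers of other cell types, which can divide or hold these transcripts, were also lower in GFP+++. Of 7 measured markers of globose basal and early neural cells 4 were at least 2-fold lower in GFP+++, against 12.4% of all genes. Signals of the 7 summed to 10861 (GFP+++), 12866 (GFP+) and 17162 (GFP-). Kit, a receptor of dividing basal cells, gave 229.8 (GFP+++), 519 (GFP+) and 843 (GFP-), and Lgr5, of the same layer, lay under the floor in GFP+++. Sox2 and Pax6 were the other calls, at log2 folds of -1.37 and -1.94. Neurod1, at -0.71, and Hes6, at -0.17, stayed within 2-fold, and Hes6 was lowest in GFP+. Neurog1 went the other way, as given above.

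Horizontal basal cell markers summed to 389.5, 1548 and 2445 in GFP+++, GFP+ and GFP-, with 6 of 7 under the floor in GFP+++, Krt14 and Trp63 among them. The 10 immune markers summed to 609, 17456 and 20664, with 7 under the floor in GFP+++, including Ptprc, and Cd3e and Cd79a under it on all arrays. Fibroblast markers summed to 2374, 25256 and 41400.4, with Pdgfra alone of 7 under the floor in GFP+++. Gland markers summed to 7239 in GFP+++, 28894 in GFP+ and 53305 in GFP-.

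Sustentacular markers summed to 30851, 37790 and 53952 on the same arrays, with all 6 above the floor in GFP+++. Endothelial markers summed to 3899.9, 10147 and 15486, but Rgs5 alone gave 3523, 9177 and 14137 of these, so the sums mostly show that gene. The median log2 fold of the 6 was -0.76 in GFP+++ against GFP-, and only Rgs5 and Cldn5 passed 2-fold. Pecam1 reached -0.63, and Cdh5 was highest in GFP+. Cdh5, Kdr and Tek, 3 of the 6, lay under the floor in GFP+++. Of 4 measured glia markers, Sox10 and S100b were under it there. Of 4 erythroid markers all were, but Hba-a1 and Epb42 lay under it on all arrays. These marker sums had the order of the mitotic genes, lowest in GFP+++ and highest in GFP-, and their part in the result was not tested. Mature neuron markers, 8 genes, did not share that order: they summed to 53409 (GFP+++), 77566 (GFP+) and 72565.5 (GFP-). Immune, fibroblast and gland medians were lower than those of the members, at log2 folds of -4.38, -4.08 and -3.39 in GFP+++ against GFP-.

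Licensing and S phase genes were lower in GFP+++ too, but over a wider range. Of 18 compared genes 7 were at least 2-fold lower, against 12.4% of all genes. Of the 18, 17 lay below 0, against 49.3% of all genes, and the median log2 fold was -0.98, or 1.97-fold. Of these 18 genes 15 had a ratio above the median of the mitotic genes, and 3 lay below the lowest mitotic gene. Signals in GFP+++ ran from 19.8% to 103% of those in GFP-.

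The 6 subunits of the replicative helicase did not share a ratio, although they act as 1 ring. Mcm3 gave 197 (GFP+++), 716 (GFP+) and 999 (GFP-) and was 5.06-fold lower in GFP+++. Mcm5 gave 779 (GFP+++), 1504 (GFP+) and 1920.2 (GFP-), or 2.47-fold lower. Mcm2 gave 415 (GFP+++), 942 (GFP+) and 928 (GFP-), or 2.24-fold lower. For Mcm2 the GFP+ and GFP- signals were all but the same on this probe set, so that only the strongly positive fraction stood apart.

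The other subunits stayed within 2-fold. Mcm4 gave 889 (GFP+++), 1106 (GFP+) and 1446 (GFP-), or 1.63-fold lower. Mcm6 gave 936 (GFP+++), 1164 (GFP+) and 1469 (GFP-), or 1.57-fold lower. Mcm7 gave 3029 (GFP+++), 3203 (GFP+) and 4135 (GFP-), or 1.37-fold lower. From Mcm3 to Mcm7 the log2 folds spanned 1.89, where the probe set SD was 0.30. Mcm5 and Mcm6, whose promoters above both carry overlapping E2F letters, lay on different sides of 2-fold. A link between these letters and the ratios was not tested.

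Further probe sets placed the subunits alike except for Mcm3. The probe set used for Mcm3 gave a log2 fold of -2.34, and those of its others that were measured on both arrays gave -1.49 and -1.19, so its size depends on the probe set while its direction does not. For Mcm7 the 4 probe sets gave -0.45, -0.49, -0.42 and -0.51. A second probe set gave -0.83 for Mcm4, -1.01 for Mcm5, -0.80 for Mcm6 and -1.32 for Mcm2, so that Mcm2, Mcm3 and Mcm5 lay below Mcm4, Mcm6 and Mcm7 on every probe set measured on both arrays.

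The loaders of that helicase are Cdc6 and Cdt1, and geminin (Gmnn) blocks Cdt1 once replication has begun. Cdc6 gave 45.6 (GFP+++), 148 (GFP+) and 211 (GFP-), under the floor in GFP+++ and therefore at least 2.02-fold lower. Cdt1 gave 992 (GFP+++), 1179.7 (GFP+) and 1615 (GFP-), or 1.63-fold lower. Gmnn gave 582 (GFP+++), 913 (GFP+) and 1155 (GFP-), or 1.98-fold lower, just inside the threshold. All 3 were highest in GFP-.

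Among the replication genes, Pcna, the sliding clamp of DNA polymerases, gave 4844 (GFP+++), 6772 (GFP+) and 9565 (GFP-), which is 1.97-fold lower. Pola1, the catalytic subunit of the priming polymerase, gave 417 (GFP+++), 559.9 (GFP+) and 819 (GFP-), or 1.96-fold lower. Its primase partner Prim1 gave 1591 (GFP+++), 1736 (GFP+) and 2054 (GFP-), or 1.29-fold lower, a value that turned to 0.05 (log2) when arrays were scaled by their medians. A second probe set of Prim1 gave a log2 fold of -0.95, so the 2 probe sets differ in size.

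Some parts of the fork differed little between fractions. Rfc4, a subunit of the clamp loader, gave 846 (GFP+++), 820.3 (GFP+) and 819.8 (GFP-), a log2 fold of 0.05. Gins1 and Gins2, of the complex that joins the helicase, parted from each other: Gins1 gave 489 (GFP+++), 442 (GFP+) and 556 (GFP-), or 1.14-fold lower, which turned to 0.23 (log2) with median scaling. Gins2 gave 182 (GFP+++), 249 (GFP+) and 389 (GFP-), or 2.14-fold lower. Outside the inhibitors Rfc4 alone was above GFP- in GFP+++ with the trimmed-mean scaling, while median scaling, which moved all genes up together to a median of 0.42, put Gins1, Prim1, Ccne1 and Cdk4 above it too.

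Nucleotide supply parted in the same manner. Rrm2, the subunit of ribonucleotide reductase whose level follows S phase, gave 584 (GFP+++), 1761 (GFP+) and 2288 (GFP-) and was 3.92-fold lower. Rrm1, the large subunit, which is known to be more stable through the cycle, gave 964 (GFP+++), 1252 (GFP+) and 1466 (GFP-), or 1.52-fold lower. Tk1, the S phase thymidine kinase, gave 104 (GFP+++), 335 (GFP+) and 477 (GFP-), with GFP+++ just under the floor, so it was at least 4.57-fold lower. Both further probe sets of Rrm2, at -1.96 and -2.24, lay near its -1.97.

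G1 control genes ranged from the lowest ratio of all members, that of Ccnd2, to a ratio near 0 for Cdk4. Of the 8 genes 4 were at least 2-fold lower in GFP+++, against 12.4% of all genes, with a median log2 fold of -0.98. The 3 D-type cyclins, which couple outside signals to the cycle, parted by fraction.

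Ccnd1 gave 1595 (GFP+++), 2905 (GFP+) and 4879 (GFP-), and was 3.06-fold lower in GFP+++ and 1.68-fold lower in GFP+, the lowest GFP+ ratio among the members. Ccnd2 gave 103 (GFP+++), 611 (GFP+) and 906 (GFP-), under the floor in GFP+++ and so at least 8.68-fold lower. Ccnd3 gave 378 (GFP+++), 735 (GFP+) and 708 (GFP-), or 1.87-fold lower. Cyclins D1 and D2 thus stepped up from each fraction to the next, while the GFP+ and GFP- signals of cyclin D3 lay close together.

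The probe sets of these cyclins bear on their size. The other probe sets of Ccnd1 gave log2 folds of -1.94 and -2.06. For Ccnd2 each of 5 probe sets above the floor in GFP- was under it in GFP+++, and the bounds of their log2 folds ran from -3.12 to -1.70. Neither gene had a probe set above the floor that went the other way.

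Cdk2, the kinase of cyclins E and A, gave 182 (GFP+++), 426 (GFP+) and 655 (GFP-) and was 3.59-fold lower. Its cyclin Ccne2 gave 155 (GFP+++), 260.2 (GFP+) and 317 (GFP-), or 2.04-fold lower. Ccne1, the other E-type cyclin, gave 180.5 (GFP+++), 241 (GFP+) and 207 (GFP-), or 1.15-fold lower, which turned to 0.22 (log2) with median scaling and 0.10 with quantile normalization. Ccne1 was highest in GFP+, and its signals were close to the floor throughout.

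Cdk4, the partner of the D-type cyclins, differed little. It gave 2368 (GFP+++), 1937 (GFP+) and 2436 (GFP-), a log2 fold of -0.04, which turned to 0.38 with median scaling, and its other probe sets gave -0.09 and 0.22. E2f1, the activating transcription factor downstream of these kinases, gave 213 (GFP+++), 320.4 (GFP+) and 408 (GFP-), or 1.91-fold lower, with a second probe set at -1.34.

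The inhibitors tied to cell cycle exit did not follow the other members. Of 6 genes 1 was at least 2-fold lower in GFP+++ and 0 were higher, near the 12.4% and 1.92% of all genes. Their median log2 fold was 0.31, against 0.01 for all genes. Of the 6, 4 lay above 0, where 49.3% of all genes lay below 0. With median scaling Cdkn1a passed 2-fold at a log2 fold of 1.15, as did 1129 of the 12184 genes compared under that scaling.

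Cdkn1a, which encodes p21 of the Cip/Kip family and is a target of p53, gave 5465 (GFP+++), 5395 (GFP+) and 3279.6 (GFP-). Against GFP- it was 1.67-fold higher in GFP+++ and 1.64-fold higher in GFP+, so on this probe set the GFP positive fractions stood together above the negative one. A second probe set gave log2 folds of 0.74 and 0.39. On that probe set the signals stepped down, at 2156 (GFP+++), 1694 (GFP+) and 1288 (GFP-). No other member was as far above GFP- in either fraction.

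Cdkn1b, p27, gave 3560.2 (GFP+++), 2661 (GFP+) and 3738 (GFP-), which left GFP+++ and GFP- close and GFP+ 1.40-fold lower than GFP-; its log2 fold in GFP+++ was -0.07 and turned to 0.35 with median scaling. Cdkn1c, p57, gave 1023 (GFP+++), 758 (GFP+) and 902 (GFP-), or 1.13-fold higher in GFP+++. Both had their lowest signal in GFP+.

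The Ink4 inhibitors, which block Cdk4 and Cdk6, went opposite ways. Cdkn2c, p18, gave 405 (GFP+++), 769 (GFP+) and 1281 (GFP-) and was 3.16-fold lower in GFP+++. Cdkn2d, p19, gave 2763 (GFP+++), 2322 (GFP+) and 2039.5 (GFP-), or 1.35-fold higher. Cdkn2c thus lay with the dividing cell genes, and Cdkn2d was highest in GFP+++ and stepped down to GFP-.

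Rb1, the retinoblastoma protein that these inhibitors keep active, gave 4808 (GFP+++), 3112 (GFP+) and 3549 (GFP-). In GFP+++ it was 1.35-fold higher against GFP- and 1.55-fold higher against GFP+. GFP+++ was the highest array for Cdkn1a, Cdkn1c, Cdkn2d and Rb1, though for Cdkn1a the log2 difference from GFP+ was 0.02 and turned to -0.15 with quantile normalization. These differences all stayed under 2-fold with the trimmed-mean scaling, and each is without a replicate check.

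The contrast of GFP+ with GFP- asks whether weak fluorescence came with a different level of cell cycle transcripts. None of the 48 members reached 2-fold in either direction, where 0.804% of 12196 genes were lower and 0.607% higher by that rule. The shift was small but went one way in most genes: 42 of 48 lay below 0, against 51.2% of all genes. The median log2 fold was -0.38, against -0.01 for all genes. At 1.5-fold, 5 members were lower, against 7.13% of all genes, and at 3-fold 0, against 0.082%. Cdkn1a was 1.64-fold higher, and 570 of the 12196 genes were at least 1.5-fold higher.

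Outside the inhibitors the medians in GFP+ were close to each other by role, at -0.37 for licensing and S phase, -0.34 for G1 control and -0.43 for G2 and mitosis, while the exit inhibitors had a median of -0.22 and ranged from -0.73 for Cdkn2c to 0.72 for Cdkn1a. All 16 mitotic genes lay below 0 in GFP+, where 51.2% of all genes did, from -0.68 for Bub1b to -0.19 for Aurka. Outside the inhibitors the 4 genes above 0 were Mcm2 (0.02), Rfc4 (0.00), Ccnd3 (0.05) and Ccne1 (0.22). Of these, Mcm2 gave -0.61 on its second probe set, and Mcm2 and Rfc4 turned to -0.04 and -0.05 with quantile normalization.

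GFP+++ against GFP+ asks how the fluorescent fractions differ from each other. In GFP+++ 15 of 48 members were at least 2-fold lower and 0 higher, where 9.34% of 11881 genes were lower and 0.985% higher. At 1.5-fold 28 members were lower, against 18.2%, and at 3-fold 4, against 3.44%. Of the 15, 9 were G2 and mitosis genes, among them Bub1 (2.79-fold lower), Aurkb (2.67-fold lower) and Top2a (2.56-fold lower), and Ccna2 stood at the threshold. The others were Mcm2, Mcm3, Rrm2, Tk1, Cdk2 and Ccnd2. The 3 comparisons share arrays, so they are not independent of each other.

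Lists of other cell cycle genes, named by role, place the members within their pathway. Of 59 other mitosis genes 29 lay 2-fold or more below GFP- in GFP+++, against 12.4% of all genes. Their median log2 fold was -0.99, and 0 were 2-fold higher, against 1.92% of all genes. Cenpt, a kinetochore gene named here after its values were seen, came closest, at 1402 (GFP+++), 723 (GFP+) and 701 (GFP-), just short of 2-fold higher. The brightest of them were Ncapg2, a condensin subunit (0.10), Cks1b, a Cdk binding protein (-0.54), and Pttg1, securin (-0.25), all within 2-fold. The lowest measured on both arrays were Cdca5, which protects sister chromatid cohesion and gave 145 (GFP+++), 522 (GFP+) and 597 (GFP-) (4.11-fold lower), and the kinase Melk, at 191, 519.9 and 708 (3.71-fold lower).

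Other replication genes differed far less. Of 50 compared, 7 were at least 2-fold lower and 0 higher, near the 12.4% of all genes, and the median log2 fold was -0.14, which turned to 0.28 with median scaling, where all genes had 0.42. Dtl, which marks Cdt1 for degradation, gave 123 (GFP+++), 337 (GFP+) and 578 (GFP-) (4.71-fold lower), and Uhrf1, which carries DNA methylation through replication, gave 281 (GFP+++), 758 (GFP+) and 1191 (GFP-) (4.24-fold lower). The single-strand binding protein Rpa1 (-0.20), the histone mRNA binding protein Slbp (-0.13) and the nucleoside kinase Dck (-0.10) stayed near 0.

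Other G1 control genes were mixed. Of 28 compared, 9 were at least 2-fold lower and 0 higher, against 12.4% and 1.92% of all genes, with a median log2 fold of -0.55. Cdk6, the second kinase of the D-type cyclins, gave 406 (GFP+++), 981 (GFP+) and 1622 (GFP-), a lower ratio than that of Cdk4. Skp2, which marks p27 for degradation, gave 164 (GFP+++), 388 (GFP+) and 487 (GFP-), or 2.97-fold lower. The antiproliferative Btg1 (-0.14), the E2F partner Tfdp1 (0.06) and the p53 ligase Mdm2 (0.18) were the brightest and stayed near 0.

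Genes of cell cycle proteins that also serve cells outside the cycle had medians near the 0.01 of all genes. Of 15 genes of the anaphase-promoting complex and its partners 0 reached 2-fold, and the median log2 fold was 0.15, with Ube2s at 0.26, Anapc5 at -0.02 and Cdc16 at 0.10. Of 24 cyclins and Cdks of other roles, in transcription or in neurons, 0 reached 2-fold, and the median was 0.08, with Ccni at -0.07, Cdk16 at 0.05 and Cdk9 at 0.36. Of all genes 12.4% were lower and 1.92% higher by that rule, so counts of 0 in lists this short say little. With median scaling 1 gene of the first and 2 of the second list were 2-fold higher, as were 1129 of the 12184 genes compared.

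**Figure D3:**
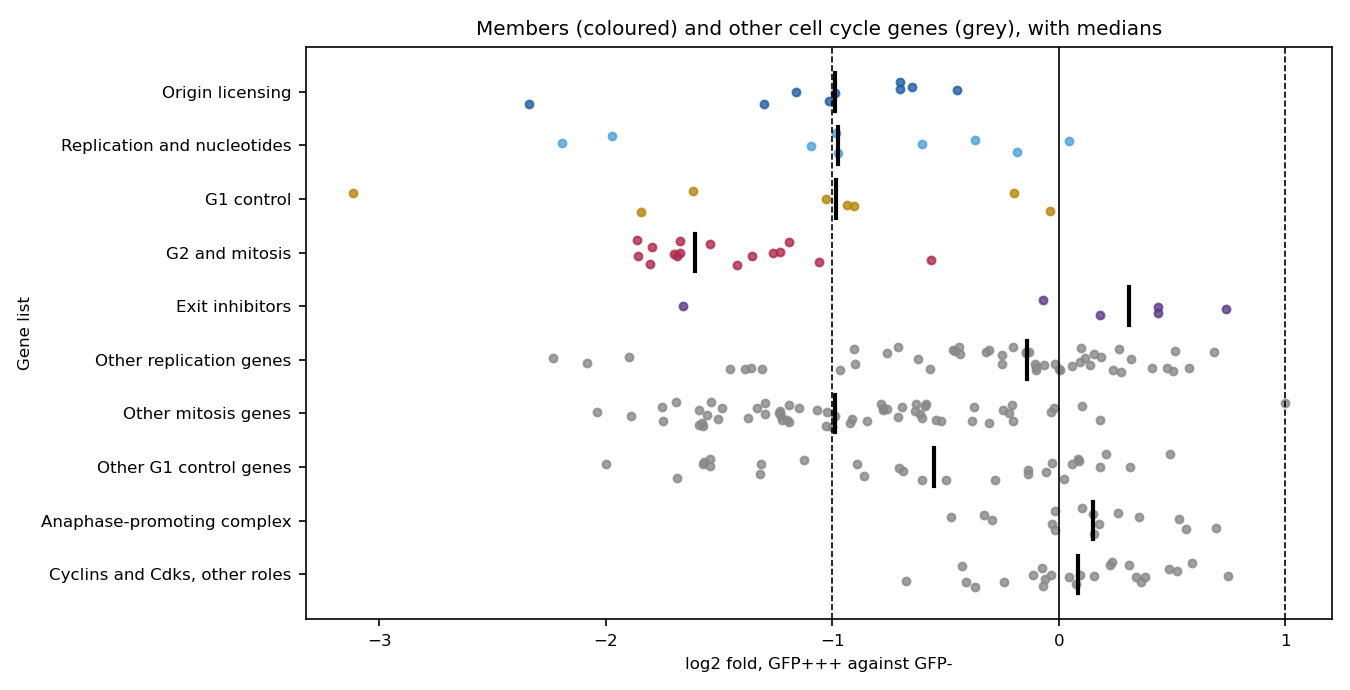
log2 fold of GFP+++ against GFP- for each gene of the 5 member groups (coloured) and of 5 other cell cycle lists (grey), 1 point per gene, with list medians as bars and 2-fold as dashed lines; genes under the floor on 1 array enter at their bound. The medians run from -1.61 for G2 and mitosis members to 0.31 for the exit inhibitors.

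Members measured by several probe sets gave the same direction in nearly every case. Of 25 further probe sets with signal above the floor in both fractions, from 19 genes, 24 went the way of the probe set used in GFP+++ against GFP-, and the exception belonged to Cdk4. The absolute difference between log2 folds of 2 such probe sets had a median of 0.20, and the largest, 1.15, was that of Mcm3. In GFP+ against GFP- 32 of 35 went the same way, with exceptions in Mcm2, Rfc4 and Ccne1.

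**Figure D4:**
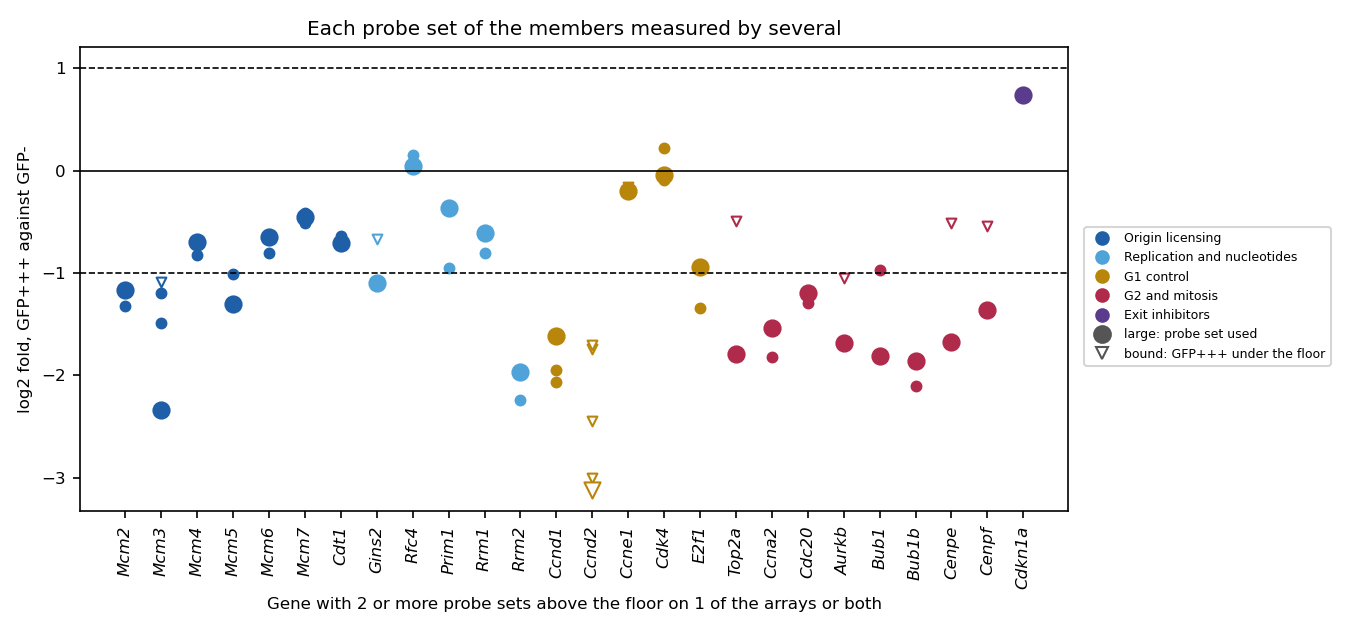
log2 fold of GFP+++ against GFP- for every probe set above the floor on at least 1 of the arrays, for members with several such probe sets, coloured by role; the large symbol is the probe set used and open triangles are bounds. The probe sets of Rrm2, Ccna2, Bub1b and Cdkn1a lie close together, and those of Mcm3 lie apart.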

How the data were processed

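The authors made the deposited signal intensity values with MAS5, per the submitters' processing notes; no source used here gives its version or settings. Total RNA was labelled as biotinylated cRNA for Affymetrix arrays, per the labels' protocols. The deposited intensity values are linear, and their 2% trimmed mean was 500.0 on each array, so the rescaling to a common trimmed mean done here changed almost nothing. MAS5 does not equalise the shape of arrays.

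Of 45101 probe sets, 34958 had 1 gene symbol, 932 several and 9211 none in the platform annotation; 34754 were matched to RefSeq (GRCm38.p6) by Entrez identifier, which changed 0 symbols. Signals were floored at the pooled median, log2 ratios were taken with Python 3.11.15, numpy 2.4.6 and pandas 2.3.3, and 2-fold was the threshold. The steps were tested on simulated arrays. Members, lists and the rule for named genes (of each other list the 3 brightest and, past 2-fold, the 2 lowest and 2 highest; 0 genes were past 2-fold higher, and some lists had none lower) were chosen with earlier results of these data known. Alternatives were other scalings, floors, probe set choices and thresholds. The number of arrays limits the precision.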

Additional observations from a re-analysis of the deposited data

How the results depend on the processing

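The count of 27 members with 2-fold lower signal in GFP+++ against GFP- became 17 with arrays scaled by their medians and 15 at a threshold of 3-fold. Of these 27 genes, 13 were at least 2-fold lower under every scaling, floor and choice of probe set in which they had a value. The count of 0 lower members in GFP+ against GFP- became 5 at 1.5-fold. The count of 15 in GFP+++ against GFP+ became 9 with median scaling, 9 with the floor at the 65th percentile, 28 at 1.5-fold and 4 at 3-fold. Median scaling moved the median log2 fold of all genes to 0.42 in GFP+++ against GFP- and left 8.58% of them lower, where 12.4% were. By role, it left 3 of 18 licensing and S phase genes lower, where 7 were lower before, 10 of 16 G2 and mitosis genes, where 15 were, and 14 of the other mitosis genes, where 29 were. Relative to that shift the members' median was -1.13, against -1.09 with the trimmed-mean scaling. No called member changed direction under an alternative. In GFP+++ against GFP-, 43 of 48 members kept their side of 0 throughout, and Ccne1, Cdk4, Cdkn1b, Gins1 and Prim1 did not. No paired analysis was possible because each fraction has 1 array. Without detection calls or replicates, ratios of members near the floor, such as Cdc6, Ccne1 and Cenpe, rest on signals that the floor can set.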
